A study of Mus musculus with 8 samples.

Results

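Sterol and fatty acid synthesis in the lacrimal gland (LG) was read from 40 genes chosen by symbol from the deposited count table, which holds 24552 genes after repeated symbols were dropped. They comprise 19 genes of sterol synthesis and its direct handling, 16 genes of fatty acid synthesis, elongation and desaturation, and 5 genes of the SREBP control machinery, kept apart because they serve both branches. Of the 40 genes, 38 passed the filter on low counts and were tested, 18, 15 and 5 in these 3 groups. Exorbital LGs of female C57BL/6J mice were compared between ad libitum feeding (AL, 4 libraries) and 40% calorie restriction (CR, 4 libraries). The restriction started at an age of 6 to 7 months (M), lasted 4 M and ended at 10 to 11 M. AL mice were of the same age, and the labels name no engineered allele. Per the study, CR mice were fed daily, shortly before night. In a cohort of the study the CR chow held more vitamins and micronutrients than the AL chow. The cohort of these libraries is not stated in the sources used here. Meal timing cannot be told apart from the restriction in this design. The study describes the libraries as separate mice, and whole glands were lysed, so acinar, ductal, immune, fat and connective tissue RNA was measured together.

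Cells build cholesterol from acetyl-CoA through mevalonate, squalene and lanosterol. Fatty acids are built from the same acetyl-CoA by acetyl-CoA carboxylase and fatty acid synthase, then elongated and desaturated. SREBP2 mainly drives the sterol genes and SREBP1c mainly the fatty acid genes. Both precursors are escorted by SCAP and held in the endoplasmic reticulum by the INSIG proteins, and insulin, feeding and carbohydrate sensing through ChREBP raise the fatty acid branch in liver and fat. In the LG, lipids are needed for the membranes of acinar cells and of their secretory granules.

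The upstream sequences of a few genes are printed first, because they show how the binding letters known for this pathway are spread over the genes that the results turn on. RefSeq windows on GRCm38.p6, from 250 bases before to 50 bases after a start, were given for 33 of the 40 genes. The motifs searched on both strands were TCACNCCAC, the core of the sterol regulatory element, CCAAT, the NF-Y box, whose reverse complement reads ATTGG, and CACGTG, the E-box. Capitals mark these matches. Each sequence is given 5′ to 3′ on the strand of its gene and ends where the RefSeq start or an annotated GENCODE exon begins. The first 2 lines belong to the fatty acid branch and are Fasn and Acacb, whose window lies inside the annotated gene. The next is Me1, the only gene of the 40 called in the main edgeR fit. That fit used all 8 libraries, the filter on low counts and diet as the only term. After Me1 come Mlxipl at its inner start, then Hmgcs1 of the sterol branch and Insig2 of the control group at its outermost start. The inner windows of Insig2 held none of these letters.
Fasn, chr11:120824548-120824797, minus strand: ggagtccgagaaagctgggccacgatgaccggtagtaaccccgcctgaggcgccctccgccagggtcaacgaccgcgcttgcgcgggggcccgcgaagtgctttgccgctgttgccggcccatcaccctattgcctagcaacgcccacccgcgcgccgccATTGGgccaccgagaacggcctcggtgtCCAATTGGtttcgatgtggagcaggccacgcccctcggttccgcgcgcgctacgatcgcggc
Acacb, chr5:114165268-114165508, plus strand: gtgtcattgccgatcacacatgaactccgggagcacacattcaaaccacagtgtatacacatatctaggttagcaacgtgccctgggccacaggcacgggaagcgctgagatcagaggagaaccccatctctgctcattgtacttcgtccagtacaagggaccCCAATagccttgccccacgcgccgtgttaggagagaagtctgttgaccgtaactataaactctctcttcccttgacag
Me1, chr9:86695954-86696164, minus strand: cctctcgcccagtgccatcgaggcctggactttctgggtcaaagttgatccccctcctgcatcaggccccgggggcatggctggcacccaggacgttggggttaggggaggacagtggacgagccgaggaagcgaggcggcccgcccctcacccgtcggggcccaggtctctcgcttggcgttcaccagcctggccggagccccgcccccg
Mlxipl, chr5:135106641-135106890, plus strand: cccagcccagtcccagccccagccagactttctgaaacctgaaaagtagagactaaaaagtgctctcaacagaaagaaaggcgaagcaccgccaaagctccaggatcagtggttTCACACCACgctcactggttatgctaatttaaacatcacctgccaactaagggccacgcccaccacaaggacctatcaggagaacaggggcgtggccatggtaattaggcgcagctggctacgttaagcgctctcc
Hmgcs1, chr13:119690101-119690350, plus strand: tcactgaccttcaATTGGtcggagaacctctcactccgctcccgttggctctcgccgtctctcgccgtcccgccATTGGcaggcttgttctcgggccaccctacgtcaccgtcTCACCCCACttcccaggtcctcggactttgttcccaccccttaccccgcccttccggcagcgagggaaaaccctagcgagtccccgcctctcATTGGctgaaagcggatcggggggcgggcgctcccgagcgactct
Insig2, chr1:121332590-121332839, minus strand: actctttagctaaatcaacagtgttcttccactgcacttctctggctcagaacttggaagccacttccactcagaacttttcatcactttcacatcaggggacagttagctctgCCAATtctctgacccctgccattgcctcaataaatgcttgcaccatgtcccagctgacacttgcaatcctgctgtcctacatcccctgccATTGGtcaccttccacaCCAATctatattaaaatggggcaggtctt

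The sterol regulatory core was found in 1 of 15 sterol genes, Hmgcs1, 137 bases before its start, and in 1 of 13 fatty acid genes, Mlxipl, 136 bases before its inner start. Of all 27025 genes with a RefSeq window, 1.44% held it. CCAAT or its reverse was found in 14 of 15 sterol genes, 10 of 13 fatty acid genes and 4 of 5 control genes, against 41.1% of all genes in the table and 42.7% of the 8829 tested genes with a window. In Fasn a CCAAT 62 bases and an ATTGG 59 bases before the start overlap, which gives the capital run of 8 letters. The E-box was found in 3 of 15, 2 of 13 and 2 of 5 genes, against 8.09% of all genes and 12.1% of the tested genes. In Me1, which fell in CR, the window at the outer start held none of these letters, and the inner start held an ATTGG 208 bases before it. Acacb, with the largest log2 difference of the 40 genes, had 1 CCAAT 87 bases before its start. These matches are descriptions of letters in a window and were not tested as binding sites.

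Levels are given as CPM, each count set against its library size scaled by relative log expression (RLE) factors, and a gene was called when its adjusted p was under 0.05 and its fold change at least 1.5. Totals ranged from 12051881 to 22156511 counts per library, and 3 counts, taken as the floor, were worth 0.152 to 0.231 CPM. Reads amplified by PCR are not independent molecules, so this floor covers counting error only. Of 8 markers of lacrimal acinar cells 7 were tested and none was called. Their summed level was 200500 to 243800 CPM in AL, and 93580 to 214900 CPM in CR with replicate 4 highest. CR replicate 4 stood apart from the other CR libraries, with a chi-square per degree of freedom of 556 to 683 against each of them, while the other pairs within a diet gave 39.4 to 154. Genes of both pathways that were called without this library are given with and without it. In whole glands, fewer cells of a type and less RNA per cell cannot be told apart.

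**Figure D1:**
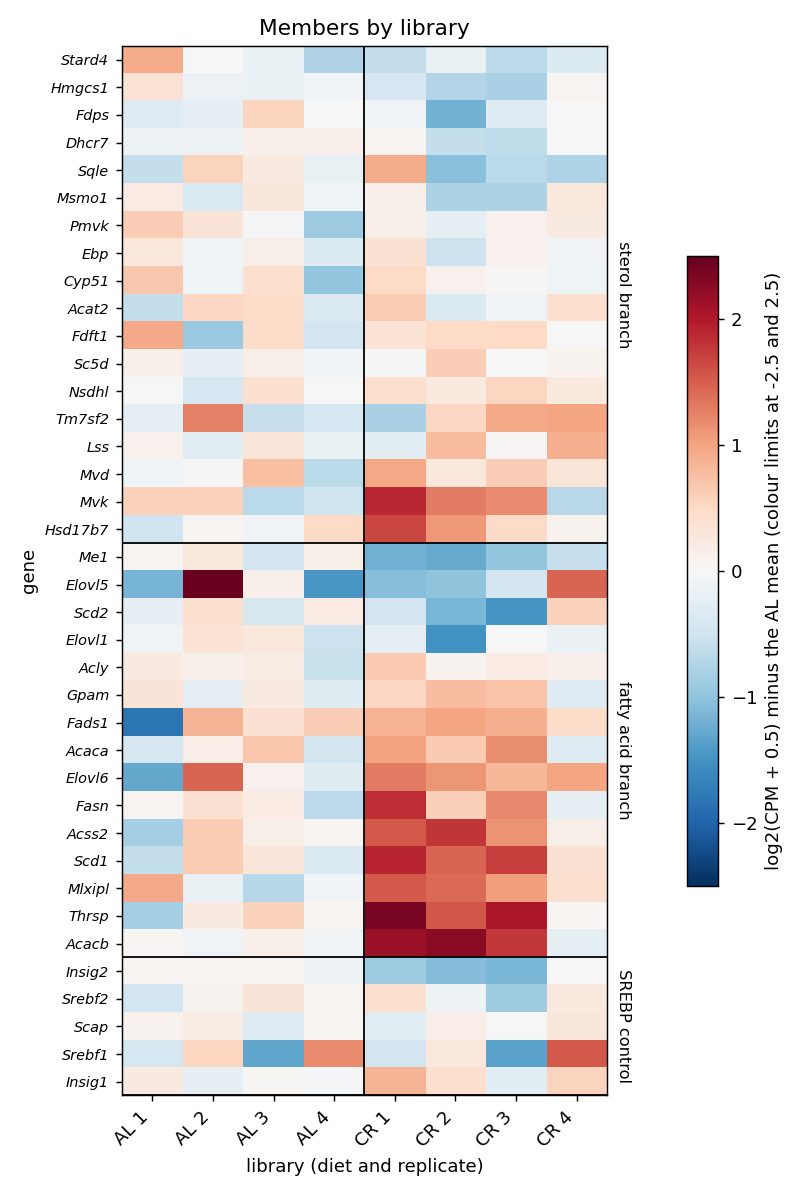
Heat map of the 38 tested genes (rows, grouped by branch) in the 8 libraries (columns, AL then CR). Colour is log2(CPM + 0.5) minus the mean of the AL libraries, red above and blue below. The upper rows of the fatty acid block are blue and its lower rows red in CR replicates 1 to 3, replicate 4 is paler, and the sterol block shows no common colour.

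Over both branches and the control genes, the main edgeR fit (quasi-likelihood test) called 1 of 38 genes, Me1, which was lower in CR. On the same libraries DESeq2 called 4 more fatty acid genes, all higher (Scd1, Acacb, Thrsp and Acss2), the fit without a filter on low counts 3 (Scd1, Acacb and Thrsp), and the fit with a replicate block 3 (Fasn, Acacb and Scd1) and Insig2 as lower. Over all genes, these fits called more as well, with 3.43% higher by DESeq2, 1.62% higher without the filter, and 3.46% higher and 2.78% lower with the block. Of all 11211 genes in the main edgeR fit, 1.2% were called higher and 0.785% lower. The mean was higher in CR for 24 of the 38 genes and lower for 14, beside 51.1% of all tested genes with CR as the higher group. Over the members the median log2 fold change was 0.193, and over all genes it was 0.011. At an unadjusted p under 0.05, 10 of the 38 genes passed, as did 16.7% of all genes. These 10 genes were not spread evenly. They comprised 7 of 15 in the fatty acid branch, 6 of them higher in CR, 2 of 18 in the sterol branch, both higher, and 1 of 5 in the control group, Insig2, which was lower.

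The branches had different medians. In the fatty acid branch 11 of 15 genes had their higher mean under CR, beside 51.1% of all tested genes, and the log2 fold changes had a median of 0.76 and a range from -1.02 to 2.22. In the sterol branch 10 of 18 had the higher mean in CR, a share close to that of all genes, with a median of 0.08 and a range from -0.75 to 1.19. Genes of a branch are not replicates and were picked with earlier results known, so no test was made of a branch or of the difference between branches.

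**Figure D2:**
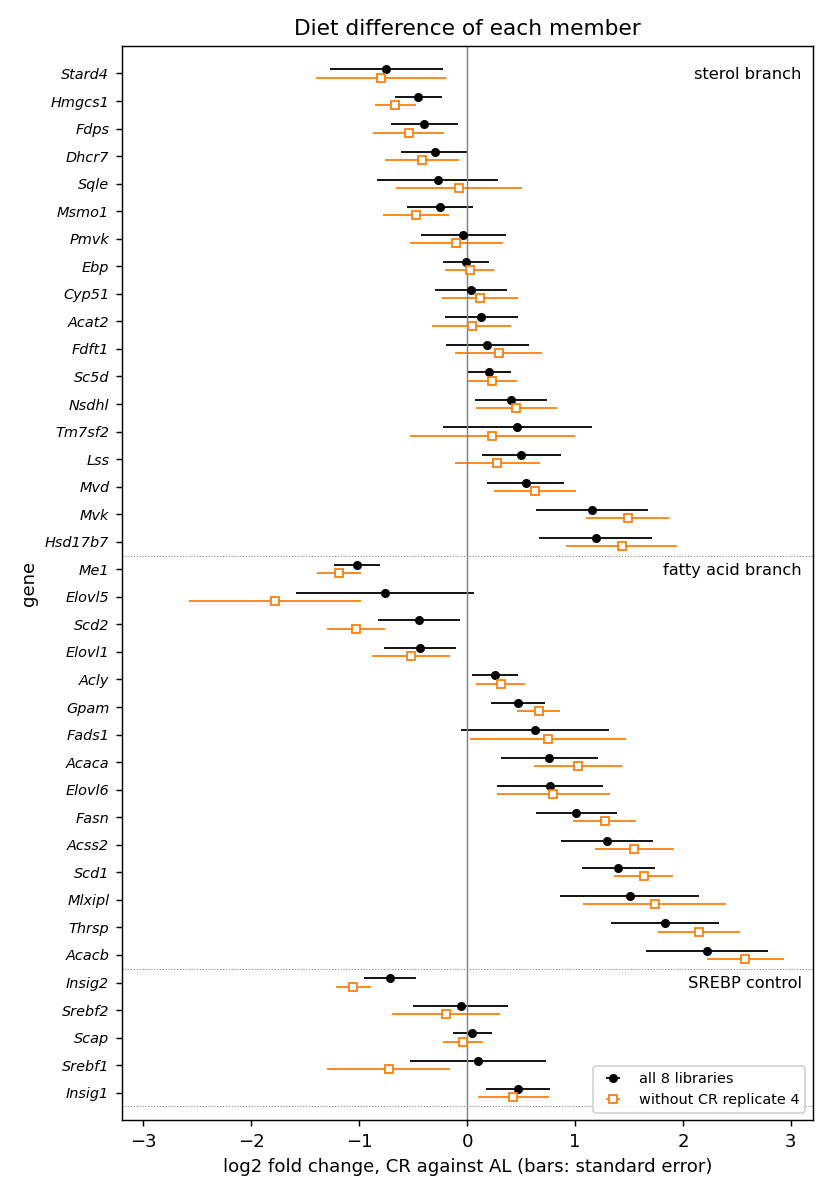
Log2 fold change of CR against AL (x axis) for each tested gene (y axis), with bars of 1 standard error, from all 8 libraries (black circles) and without CR replicate 4 (orange squares). Fatty acid genes reach from -1.02 for Me1 to 2.22 for Acacb, and sterol genes from -0.75 for Stard4 to 1.19 for Hsd17b7.

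The fatty acid branch was split between enzymes. Me1, the cytosolic malic enzyme that makes NADPH for lipid synthesis, fell by 1.02 on the log2 scale. It was the one gene of the branch called in the main edgeR fit. The carboxylase Acacb, the regulator Thrsp, the desaturase Scd1 and the synthase Fasn had CR means from 2.02 to 4.68 times those of AL. The main edgeR fit, with all 8 libraries, called none of them. Without the filter on low counts edgeR called Scd1 (adjusted p = 0.0149), Acacb (0.028) and Thrsp (0.0312). With the replicate block edgeR called Fasn (adjusted p = 0.0462), Acacb (0.0489) and Scd1 (0.00899). On the same libraries DESeq2 called Acacb (adjusted p = 0.00353), Thrsp (adjusted p = 0.00713) and Scd1 (adjusted p = 0.00206). In 9 of the 11 fatty acid genes with a higher CR mean, CR replicate 4 was the lowest CR library. Among all tested genes with a higher CR mean this share was 35.8%.

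Me1 (Gene ID 17436, chr9:86581371-86695953, minus strand, protein coding) had, in the order of the replicate numbers, 54.2, 61.9, 36.8 and 57.1 CPM in AL and 22.2, 21.3, 25.8 and 34.3 CPM in CR. Every CR library lay below every AL library, so the groups did not overlap, as in 5.2% of all tested genes. The means were 52.5 ± 10.9 CPM in AL and 25.9 ± 5.92 CPM in CR (SD, n = 4 each). The log2 fold change was -1.02 with a standard error of 0.21 and a 95% interval from -1.48 to -0.56, at an adjusted p of 0.0335 (edgeR's quasi-likelihood test, Benjamini-Hochberg adjustment). This call held without AL replicate 3 (adjusted p = 0.0299) or CR replicate 4 (adjusted p = 0.00519), and was lost without AL replicate 1, 2 or 4 or CR replicate 1, 2 or 3, where the adjusted p lay between 0.0659 and 0.125. Its log2 difference in these 8 fits lay between -1.19 and -0.93.

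Scd1 (chr19:44394455-44407879, minus strand), the stearoyl-CoA desaturase that makes oleate and palmitoleate, was at 30.8, 73.3, 57.6 and 36.6 CPM in AL and at 177, 129.6, 156 and 61.4 CPM in CR. CR replicates 1 to 3 stood above every AL library and replicate 4 within the AL range. This was a log2 fold change of 1.40 ± 0.34 (SE) with an interval from 0.66 to 2.14, at an adjusted p of 0.0581, just outside the threshold. Without CR replicate 4 it was 1.64 ± 0.27 at an adjusted p of 0.00431. The neighbouring paralog Scd2 (chr19:44293674-44306864, plus strand) ran the other way in the same 3 libraries. It was at 34.1, 52.1, 29.9 and 45.8 CPM in AL and at 28.1, 17.7, 13.9 and 58.9 CPM in CR, a log2 fold change of -0.45 ± 0.38 at an adjusted p of 0.622. CR replicate 4 held the highest Scd2 level of all 8 libraries, and without it the log2 fold change was -1.03 ± 0.27 at an adjusted p of 0.0416. No 75-base window of the last 600 bases of either desaturase was shared with another gene.

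The first committed steps were carried by genes at very different counts. Fasn (chr11:120805846-120824547, minus strand), the fatty acid synthase, was at 34.4, 42.8, 38.1 and 20.9 CPM in AL and at 120.0, 50.03, 76.8 and 27.9 CPM in CR, with replicate 4 again inside the AL range. Its log2 fold change was 1.01 ± 0.37 (adjusted p = 0.187), and 1.27 ± 0.29 without CR replicate 4 (adjusted p = 0.0230). Without CR replicate 1, the highest library, it was 0.61. Acacb (chr5:114146535-114250761, plus strand), the carboxylase of the outer mitochondrial membrane whose malonyl-CoA restrains fatty acid oxidation, was at 0.925, 0.797, 1.02 and 0.812 CPM in AL and at 5.66, 6.10, 4.21 and 0.666 CPM in CR. The raw counts behind these values were 12 to 16 in AL, 68 to 103 in CR replicates 1 to 3 and 12 in CR replicate 4, the lowest CPM of all 8 libraries. The log2 fold change of Acacb was 2.22 ± 0.56 (interval 0.99 to 3.45, adjusted p = 0.0656) and, without that library, 2.58 ± 0.36 (adjusted p = 0.00136). The cytosolic carboxylase Acaca, which feeds the synthase, had a difference of 0.76 ± 0.45 (adjusted p = 0.444), and Acly, which cleaves citrate to acetyl-CoA, had 0.26 ± 0.21 (adjusted p = 0.604).

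Acss2 makes acetyl-CoA from acetate. It was at 1.31, 4.60, 3.13 and 2.94 CPM in AL and at 8.98, 10.8, 6.69 and 3.11 CPM in CR, a log2 fold change of 1.29 ± 0.42 at an adjusted p of 0.139, and of 1.55 ± 0.37 at 0.0264 without CR replicate 4. Thrsp (Spot 14), a nuclear and cytosolic protein that accompanies lipogenesis, was at 0.925, 2.52, 3.35 and 2.18 CPM in AL and at 12.8, 7.05, 10.2 and 2.17 CPM in CR. Its log2 fold change was 1.83 ± 0.50 (adjusted p = 0.0844), and 2.15 ± 0.38 without CR replicate 4 (adjusted p = 0.00546). In both genes CR replicates 1 to 3 lay above all AL libraries while replicate 4 lay among them. Mlxipl, which encodes ChREBP, was at 0.146 to 1.54 CPM in AL and at 0.889 to 2.55 CPM in CR, with a difference of 1.51 ± 0.64 (adjusted p = 0.259), and of 1.74 ± 0.66 without CR replicate 4 (adjusted p = 0.161). Over the fits that left out 1 library, its difference lay between 1.18 and 2.31. One AL library was below the floor for this gene.

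**Figure D3:**
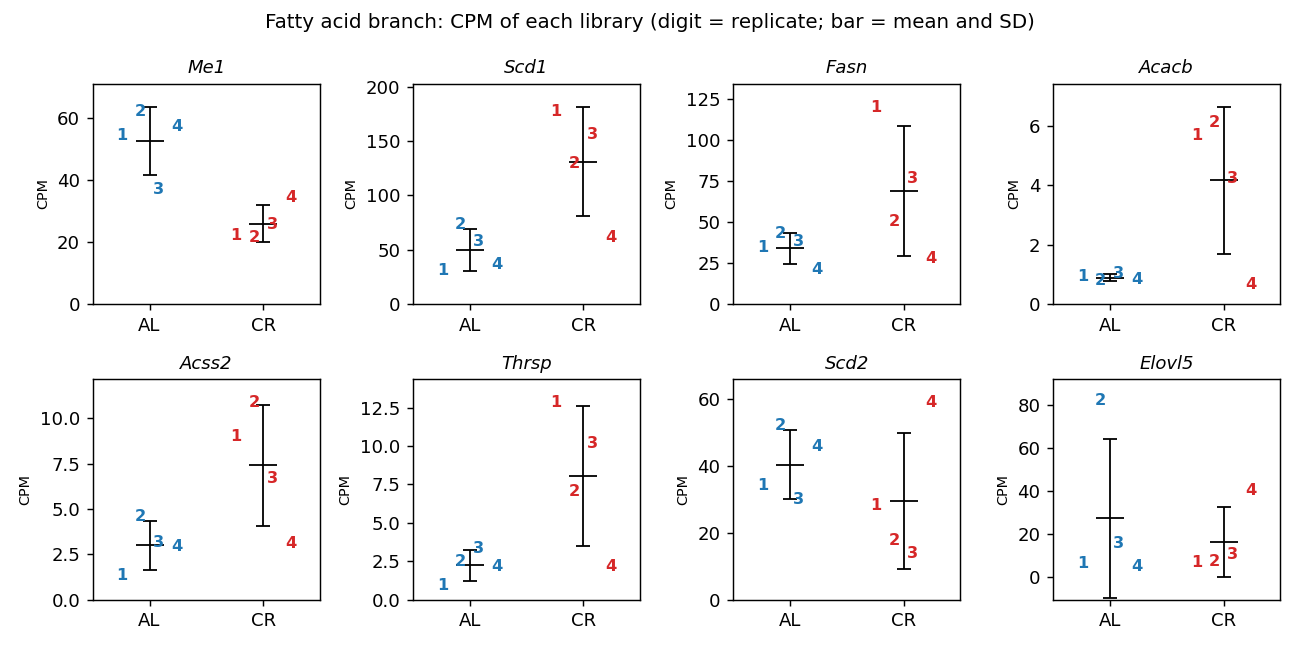
CPM (y axis, linear, one scale per panel) of 8 fatty acid genes in AL and CR. Each digit is a library and gives its replicate number, and the bar is the mean and SD of the 4 libraries. Me1 is the one panel without overlap, and in Scd1, Fasn, Acacb, Acss2 and Thrsp the CR digit 4 sits at the AL level.

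The rest of the branch did not follow one direction. Gpam, which attaches the first acyl chain to glycerol 3-phosphate, had a difference of 0.47 ± 0.25 (adjusted p = 0.390), and of 0.66 ± 0.20 without CR replicate 4 (adjusted p = 0.0748). The elongase Elovl6, which extends palmitate, was at 1.23 to 11.2 CPM in AL and at 7.00 to 9.90 CPM in CR, and Fads1, the delta-5 desaturase, had no count in AL replicate 1 and 1.82 to 2.70 CPM in the other AL libraries, with 1.94 to 3.02 CPM in CR. Elovl5, which elongates polyunsaturated chains, was the most uneven gene of the branch, at 6.16, 81.9, 15.7 and 4.92 CPM in AL and at 6.58, 6.93, 10.2 and 40.3 CPM in CR. Its log2 fold change of -0.76 ± 0.83 (adjusted p = 0.718) turned to 0.85 without AL replicate 2 and was -1.78 ± 0.79 without CR replicate 4 (adjusted p = 0.234). Elovl1, the elongase of saturated very long chains, had a difference of -0.44 ± 0.33 (adjusted p = 0.568), and its transcript end overlaps Cdc20 on the other strand, while no 75-base window there was shared. The delta-6 desaturase Fads2 had 5 counts in all 8 libraries together and was compared by an exact permutation test, two-sided (p = 0.4286, adjusted p = 0.8571, where the smallest p that 4 against 4 allow is 0.0286). Its change was not detectable at this depth.

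Without CR replicate 4, 5 fatty acid genes were called higher (Fasn, Acacb, Acss2, Scd1 and Thrsp) and 2 lower (Scd2 and Me1), where 3.97% of all genes tested in that fit were called higher and 2.17% lower. CR replicates 1 to 3 stood above every AL library in 8 of the 15 genes, against 9.86% of all genes, and below every AL library in 2, against 8.92%. With all 4 CR libraries, 0 genes lay wholly above AL, against 4.58% of all genes. The median log2 fold change of the branch moved little, from 0.76 to 0.80, when this library was left out.

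The sterol branch showed no common direction. None of its 18 tested genes was called, with 2 at an unadjusted p under 0.05, and DESeq2 called none either. Mvk and Hsd17b7 had the largest positive differences, Stard4 and Hmgcs1 the most negative ones, and both signs occurred early and late in the pathway. The more deeply counted genes differed in how far their intervals reached. Ebp, the sterol isomerase, had a log2 fold change of -0.01 with an interval from -0.47 to 0.45. A difference of the size of the 1.5-fold threshold lay outside that interval. It lay within the interval of Sc5d, the lathosterol desaturase, which had 0.20 (-0.25 to 0.65), and within that of Hmgcs1 (-0.93 to 0.02).

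Among the early enzymes, Hmgcs1 (chr13:119690379-119708260, plus strand), the synthase that makes HMG-CoA, was at 73.7, 51.6, 50.8 and 54.6 CPM in AL and at 42.7, 34.2, 32.2 and 59.4 CPM in CR. CR replicates 1 to 3 lay below every AL library and replicate 4 above 3 of them. The means were 57.7 ± 10.8 CPM in AL and 42.1 ± 12.4 CPM in CR (SD, n = 4 each), with a log2 fold change of -0.45 ± 0.22 (interval -0.93 to 0.02, adjusted p = 0.327) and of -0.67 ± 0.19 without CR replicate 4 (adjusted p = 0.0649). Mvk, the mevalonate kinase, pointed the other way, at 4.85, 4.85, 1.75 and 2.03 CPM in AL and at 12.7, 8.11, 7.55 and 1.72 CPM in CR. Its log2 fold change was 1.16 ± 0.52 (adjusted p = 0.289) and, without CR replicate 4, 1.49 ± 0.39 (adjusted p = 0.0411), which was the only sterol gene called in that fit. The next kinase, Pmvk, had a difference of -0.03 ± 0.39, and the decarboxylase Mvd had 0.54 ± 0.36 (adjusted p = 0.492).

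The isoprenoid steps followed. Idi1, the isopentenyl diphosphate isomerase, had 4 counts in all, 2 in each diet (exact permutation test, two-sided, p = 1), so no difference was detectable at this depth. Fdps, which makes farnesyl diphosphate, had a difference of -0.40 ± 0.31 (adjusted p = 0.580), and 63.3% of the 75-base windows in its last 600 bases also occur in Gm3571 or Gm43738. Fdft1, the squalene synthase, had 0.19 ± 0.39 (adjusted p = 0.875), and all of its windows, 100% of them, lie on the other strand within transcripts of Ctsb, the cathepsin B gene. The strand setting of the counting was not given in the sources used here, so its counts are uncertain, as are those of Fdps for the windows it shares with Gm3571 and the same-strand Gm43738. Sqle, the epoxidase that is a rate-limiting step of the pathway, stood at 1.39 to 3.68 CPM in AL and at 0.888 to 1.30 CPM in CR replicates 2 to 4, with 4.95 CPM in CR replicate 1.

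From the closing of the sterol ring onward, no gene was called. Lss, which closes the ring, had 0.50 ± 0.37, Cyp51, the lanosterol demethylase, 0.04 ± 0.33, and Msmo1, the methyl oxidase, -0.25 ± 0.30. Without CR replicate 4, Lss had 0.28 ± 0.39 and Msmo1 -0.47 ± 0.31. A share of the windows of Lss (9.1%) and Cyp51 (17.5%) is also found in an overlapping transcript on the other strand. Nsdhl had 0.41 ± 0.33, Tm7sf2, the sterol reductase, 0.46 ± 0.69, and Dhcr7, the last reductase toward cholesterol, -0.30 ± 0.31, with adjusted p values of 0.605, 0.812 and 0.702. Without AL replicate 2, its highest library at 3.13 CPM, Tm7sf2 had 1.46. Hsd17b7, the keto reductase of the same complex as Nsdhl, was at 0.539, 1.04, 0.875 and 1.57 CPM in AL and at 4.17, 2.60, 1.55 and 1.05 CPM in CR, and its log2 fold change of 1.19 ± 0.52 did not pass (adjusted p = 0.273). Acat2, the cytosolic thiolase that supplies acetoacetyl-CoA, had 0.13 ± 0.34, and Stard4, a cholesterol carrier, had -0.75 ± 0.52 (adjusted p = 0.526), and -0.21 without AL replicate 1, its highest library at 3.39 CPM beside 0.710 to 1.53 CPM in the other AL libraries.

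Of the control genes, Insig2 had the most separated levels. Insig2 (chr1:121304353-121332589, minus strand) retains the SCAP and SREBP complex and in liver is a transcript suppressed by insulin. It was at 61.2, 61.3, 61.9 and 53.3 CPM in AL and at 31.3, 27.8, 26.7 and 58.7 CPM in CR. Replicate 4 alone kept the CR group within the AL range. This gave a log2 fold change of -0.72 ± 0.24 (adjusted p = 0.15), and -1.06 ± 0.16 without CR replicate 4 (adjusted p = 0.00270).

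Its paralog Insig1, an SREBP target, was at 3.44 to 4.78 CPM in AL and at 7.64, 5.57, 3.22 and 6.16 CPM in CR, a difference of 0.47 ± 0.30 (adjusted p = 0.470). Srebf1 varied more within each diet than between them, at 4.01, 8.34, 1.97 and 13.3 CPM in AL and at 3.89, 6.81, 1.92 and 17.2 CPM in CR. Its log2 fold change was 0.10 ± 0.63 and turned to -0.73 without CR replicate 4. Of its windows 6.7% are also found in Rai1 on the other strand. Srebf2 had -0.06 ± 0.44, and Scap had 0.05 with an interval from -0.35 to 0.44, so a difference of the size of the 1.5-fold threshold lay outside that interval for Scap and within it for Srebf1 and Srebf2. None of the 5 control genes was called in the main edgeR fit, while the edgeR fit with a replicate block called Insig2 lower (-0.80, adjusted p = 0.0472).

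**Figure D4:**
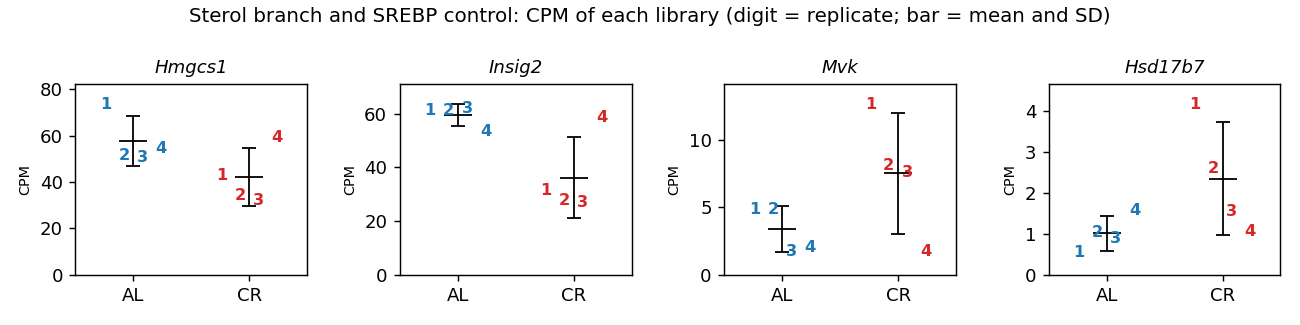
CPM (y axis, linear, one scale per panel) of Hmgcs1, Insig2, Mvk and Hsd17b7 in AL and CR. Each digit is a library and gives its replicate number, and the bar is the mean and SD. For Hmgcs1 and Insig2 the CR digits 1 to 3 lie below all AL digits and the CR digit 4 among them, and for Mvk the CR digits 1 to 3 lie above all AL digits and the CR digit 4 at the AL level.

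Of 50 further genes of both pathways, their transport and their esterification, 44 were tested. One was called, Dgat2, the acyltransferase of the last step of triglyceride synthesis, and none was called lower, beside 1.2% and 0.785% of all tested genes. Dgat2 was at 0.693, 1.29, 0.656 and 0.710 CPM in AL and at 5.87, 3.97, 1.73 and 2.72 CPM in CR, with every CR library above every AL library. It rose by 2.08 ± 0.46 on the log2 scale (adjusted p = 0.0439), and the call was lost in 7 of 8 fits that left out 1 library, all but the one without CR replicate 4 (2.19 ± 0.50, adjusted p = 0.0227), with adjusted p values between 0.0525 and 0.133. Over the 44 genes, 31 had the higher mean in CR and 13 the lower (51.1% of all genes had the higher), with a median of 0.17, and 11 had an unadjusted p under 0.05, as did 16.7% of all genes.

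The CR and AL libraries of 8 of these 44 genes did not overlap, 4 above and 4 below AL, beside 4.58% and 5.2% of all tested genes, and these are named here after their values were seen. Besides Dgat2, those above AL were Slc25a1, the citrate carrier, Acsl4, an acyl-CoA synthetase, and Agpat2, the second acyltransferase of glycerolipid synthesis. Slc25a1 was at 4.24, 5.95, 4.81 and 6.24 CPM in AL and at 10.7, 9.24, 12.8 and 8.55 CPM in CR, with a difference of 0.95 ± 0.23 (adjusted p = 0.0558). It was called by DESeq2 (adjusted p = 0.00813), without the filter on low counts (0.0443), with the replicate block (0.0354) and without CR replicate 4 (1.03 ± 0.24, adjusted p = 0.0256). Acsl4 had a difference of 0.85 ± 0.23 (adjusted p = 0.0825) and Agpat2 of 0.89 ± 0.26 (adjusted p = 0.104), and without CR replicate 4 both were called, at 0.995 ± 0.21 (adjusted p = 0.0158) and 1.02 ± 0.27 (adjusted p = 0.0412). The genes below AL were Soat1, which esterifies cholesterol, Nr1h3, the sterol-sensing receptor LXR alpha, Hacd3 and G6pdx, the first NADPH-producing enzyme of the pentose phosphate pathway. G6pdx had a difference of -0.51 ± 0.22 (adjusted p = 0.272) and Soat1 of -0.47 ± 0.17 (adjusted p = 0.188), and none of the 4 was called. Scd3, a further desaturase next to Scd1 and Scd2, had 0.462, 30.1, 18.5 and 0.964 CPM in AL and 0.920, 0.237, 0.681 and 6.94 CPM in CR, without a call (-2.49 ± 1.15, adjusted p = 0.302), and its difference without CR replicate 4 was -4.36 ± 1.23 (adjusted p = 0.0566). Over the fits that left out 1 library, it lay between -4.36 and -1.57.

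The parotid and adipocyte marker sums were highest in the same 3 CR libraries as the median log2 ratio of the fatty acid genes. Single markers could differ. CR replicate 4 lay above CR replicate 3 for Prb1, Prh1 and Prp2, and was the lowest CR library for the other parotid markers. For Fabp4 it lay above CR replicate 1. All 8 parotid gland transcripts were higher in CR and 3 were called, and their summed level was 316.7 to 28430 CPM in AL, 209800 to 288700 CPM in CR replicates 1 to 3 and 22900 CPM in CR replicate 4. Of 10 white adipocyte markers 7 were tested, all 7 were higher in CR and 1 was called, Fabp4. The adipocyte sum was 39.5 to 43.1 CPM in AL, 90.8 to 141 CPM in CR replicates 1 to 3 and 43.9 CPM in CR replicate 4. Lep had 0 to 0.118 CPM and Plin1 0 to 1.98 CPM. The median log2 ratio of the 15 fatty acid genes to the AL mean was 1.003, 0.78, 0.91 and 0.13 in CR replicates 1 to 4, so the order of replicate 4 behind the other CR libraries was shared by the branch and by both marker sums. Within AL the order of the parotid sum was not shared. AL replicate 1 had the highest parotid sum and a fatty acid median of -0.21. The adipocyte sum varied little within AL while this median ran from -0.30 to 0.35. The mean log2 level of the adipocyte markers was highest in AL replicate 2 at 1.21, as was this median at 0.35. That mean level was lowest in AL replicate 3 at 0.88, where the median was 0.195. For the sterol genes this median was 0.24, -0.04, 0.03 and 0.07 in CR replicates 1 to 4.

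**Figure D5:**
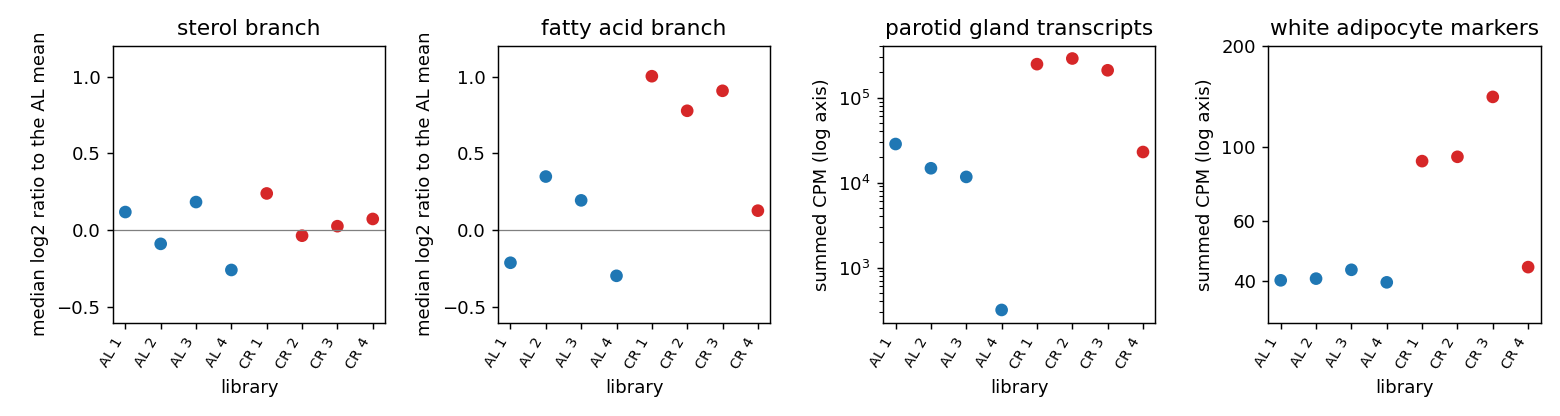
From left, the median log2 ratio to the AL mean of the sterol and of the fatty acid genes, and the summed CPM (log axes) of parotid gland transcripts and of white adipocyte markers, for each library (x axis, AL blue, CR red). CR replicate 4 falls near the AL libraries in the fatty acid and adipocyte panels and within the AL range in the parotid panel. In the sterol panel the diets overlap.

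When the mean log2 level of the parotid transcripts was entered as a covariate, the difference was 0.72 for Scd1, -0.11 for Fasn, 0.73 for Acacb, 1.41 for Thrsp and -0.60 for Me1. With the adipocyte mean as covariate the same genes had 0.44, 0.15, 0.97, 0.60 and -0.88. No gene of the 40 was called in either fit, and over all genes tested these fits called 3 genes and 0 genes higher and 0 lower, at 1222 and 524 genes with an unadjusted p under 0.05. The median of the fatty acid branch was 0.43 with the parotid covariate and 0.27 with the adipocyte covariate. Both scores differ between the diets, so the covariate takes up part of the diet difference itself. The part of other tissues in the differences of the fatty acid genes was not tested. Of 2 markers of brown adipocytes, Ucp1 was at 0 to 0.123 CPM. Cidea was at 0.761 to 3.01 CPM in AL and at 0.118 to 2.11 CPM in CR. Its difference was -0.44 ± 0.69, and it was not called. Of 9 markers of meibomian, sebaceous and Harderian glands, 3 were tested. Their sum was 158 to 174 CPM in AL and 86.6 to 126 CPM in CR. It was mostly Soat1, which other cells also express, at 130.9 to 156.4 CPM in AL. Mc5r had a difference of 0.93 ± 0.51, and the third, Scd3, is described above. AL replicate 2 was the highest library for Scd3, Dgat2l6 (1.227 CPM), Far2 (0.92 CPM) and Awat2 (0.613 CPM). The marker Elovl3 was highest in CR replicate 4 (2.499 CPM), then in AL replicate 2 (1.288 CPM). Awat1, Krt79 and Mc5r were highest in CR replicate 1 or 3. Elovl5 was highest in AL replicate 2, then in CR replicate 4. Whether these levels share a source was not tested. The 5 macrophage markers were lower in CR with 1 called, which was Lyz2. Of 5 skeletal muscle markers 4 were tested and all 4 were higher in CR, 2 at an unadjusted p under 0.05 and none called, with sums of 57.0 and 35.0 CPM in CR replicates 2 and 4, 2.19 and 2.85 CPM in CR replicates 1 and 3, and 0.797 to 9.86 CPM in AL.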

How the data were processed

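Bulk RNA libraries of LGs, 4 per diet, were sequenced from 3′ ends. Per the labels and the study's methods, the authors used cutadapt for trimming, STAR with mm10 for alignment and HTSeq for counting; versions and the strand setting are not given in the sources used here. The deposited raw counts were analysed. The deposited log2 values are these counts divided by a DESeq2 size factor, plus 1 before the log. Recomputed values differed by at most 0.000124, and they were not used further.

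Of 24557 listed genes, 5 repeated symbols were dropped. Counts were scaled with RLE factors, filtered with filterByExpr and tested over all 11211 genes that remained (edgeR 4.0.16 quasi-likelihood F test, R 4.3.3, Benjamini-Hochberg adjustment). As in the study, a call needed an adjusted p below 0.05 together with a 1.5-fold difference. Standard errors were derived from the log2 fold change and the square root of its F statistic, and intervals cover 95%. The heat map uses log2(CPM + 0.5). Genes under the filter were compared by exact permutation tests.

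The labelled diet set the 2 groups. All 40 genes are named, and of the further pathway genes those called, except where stated. The genes and lists were chosen with earlier results of these data known. The fit was repeated with DESeq2 1.42.0, limma 3.58.1 voom, TMM or upper-quartile factors, without the filter or the fold threshold, with a minimum of 10 counts per library, with a replicate block, leaving out each library or the 50 most counted genes, and the marker scores as covariates. Scripts were tested on simulated data. Positions are from GENCODE vM21 (GRCm38) and promoters from RefSeq (GRCm38.p6). For each gene, the last 600 bases of its longest coding transcript were searched for 75-base windows shared with other genes. The cornea and conjunctiva were not analysed here.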

Additional observations from a re-analysis of the deposited data

Results flagged for a closer look

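Within a diet, 12 levels lay farther from the other 3 libraries than Dixon's 95% limit allows, out of 82 groups examined, where chance flags about 1 in 20. Of these, 3 belong to CR replicate 4, namely Insig2 at 58.7 CPM beside 26.7 to 31.3 in the other CR libraries, Elovl5 at 40.3 CPM beside 6.58 to 10.2, and Scd3 at 6.94 CPM beside 0.237 to 0.92. Another 3 belong to AL replicate 2, namely Elovl5 at 81.9 CPM beside 4.92 to 15.7, Tm7sf2 at 3.13 CPM beside 0.51 to 0.771, and Dgat2 at 1.29 CPM beside 0.656 to 0.71. AL replicate 4 was low for Acly at 20.6 CPM beside 33.5 to 35.8 and for Insig2 at 53.3 CPM beside 61.2 to 61.9. CR replicate 1 was high for Acly at 48.3 CPM beside 32.5 to 35.1 and for Sqle at 4.95 CPM beside 0.888 to 1.3. Hmgcs1 stood at 73.7 CPM in AL replicate 1 beside 50.8 to 54.6, and Sc5d at 18.7 CPM in CR replicate 2 beside 11.7 to 12.8. Their cause was not tested.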

How the results depend on the processing

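Named were 41 genes, the 38 tested members and Dgat2, Slc25a1 and Scd3. Under TMM or upper-quartile factors and without the 50 most counted genes all 41 kept their direction and call, as did the 35 that could be fitted at 10 or more counts in every library, which leaves out Dgat2 and therefore gives 0 further pathway genes called higher. The log2 fold change kept its sign under every alternative in 18 genes and turned in 23, which had at most 0.763 in size where a fit without a marker covariate turned them. Low counts limit Idi1 and Fads2, which had 4 and 5 counts in all.

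Over all genes, 134 were called higher and 88 lower. DESeq2 called 385 and 317, limma voom 53 and 51, and no filter on low counts gave 271 and 165. DESeq2 called 4 fatty acid genes higher (Scd1, Acacb, Thrsp and Acss2) and 4 further pathway genes, no filter gave 3 (Scd1, Acacb and Thrsp) and 2, and limma voom called 0 further pathway genes. Under limma voom Pmvk turned to 0.168 and Srebf1 to -0.066. Why these tools differ was not tested.

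Same-numbered libraries of the diets are not known to be pairs. The correlations of their deviations from the diet means were 0.182, 0.0995, 0.278 and 0.507, and CR replicate 1 correlated best with AL replicate 3 (0.375). With the replicate block, 388 genes were called higher and 312 lower, with 3 fatty acid genes higher (Fasn, Acacb and Scd1), 1 control gene lower (Insig2) and 3 further pathway genes higher, and Pmvk turned to 0.066.

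With the parotid covariate 3 genes were called higher and 0 lower, with 0 of the fatty acid genes lower and 0 of the further genes higher. The sterol median moved to -0.179, and the log2 fold change turned for Mvk (-0.608), Mvd (-0.205), Fdps (0.112), Fdft1 (-0.866), Cyp51 (-1.228), Sc5d (-0.154), Dhcr7 (0.027), Fasn (-0.115), Acaca (-0.118), Acly (-0.373), Scd2 (0.491), Elovl5 (0.454), Gpam (-0.353) and Srebf2 (0.157). With the adipocyte covariate 0 genes were called higher and 0 lower in every list, the fatty acid median was 0.268 and the control median 1.077, and the log2 fold change turned for Hmgcs1 (0.153), Mvk (-0.209), Tm7sf2 (-0.011), Msmo1 (0.677), Dhcr7 (0.309), Acaca (-0.332), Scd2 (0.694), Gpam (-0.168), Insig2 (0.009) and Srebf2 (1.077).

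Leaving out 1 library gave 35 (without AL replicate 2) to 453 genes called higher and 25 (without CR replicate 2) to 247 lower, the highest of both without CR replicate 4. Fatty acid genes called higher ranged from 0 to 5 and lower from 0 to 2, sterol genes higher from 0 to 1, control genes lower from 0 to 1 and further genes higher from 0 to 4, each highest without CR replicate 4. The log2 fold change crossed 0 for Pmvk (-0.303 to 0.23), Fdft1 (-0.072 to 0.605), Cyp51 (-0.219 to 0.305), Ebp (-0.154 to 0.139), Acat2 (-0.052 to 0.325), Elovl5 (-1.781 to 0.848), Srebf1 (-0.728 to 0.64), Srebf2 (-0.261 to 0.198) and Scap (-0.057 to 0.155).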
